A study of Mus musculus with 9 samples.

Results

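The genes described are the kinesin motors and centromere proteins measured in mouse liver, chosen by name: every gene whose symbol starts with Kif and a digit, or is Cenp followed by 1 letter, with a probe set annotated to that gene alone. There were 58 such genes, 38 kinesin names and 20 Cenp names, among 19938 genes with a probe set of their own, and the brightest probe set stood for each gene. They were sorted by known role into 12 mitotic kinesins, 13 transport kinesins, 12 other kinesins, 16 inner centromere proteins, 2 outer kinetochore proteins (Cenpe and Cenpf), 2 further Cenp genes (Cenpj and Cenpv) and the pseudogene Kif4-ps. RNA came from whole liver of male mice on a C57/BL6 background, aged 8 to 9 weeks and fed standard chow, on 9 arrays. By its label the labelled double knockout (3 arrays) lacked NEMO in hepatocytes and also p21, with no cell type named for the p21 loss. The NEMO knockout (NEMOΔhepa, 3 arrays) lacked NEMO in hepatocytes and has no p21 deletion in its label, and wild type mice (3 arrays) carried neither deletion. Both knockout groups thus share the loss of NEMO in hepatocytes, and there was no group lacking p21 alone. Whether other liver cells kept NEMO was not measured. The driver of the hepatocyte deletion is not given in the sources used here.

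Kinesins are motors that walk along microtubules or shorten their ends by using ATP. Mitotic kinesins build the spindle, move and align chromosomes and help to split the daughter cells, and most are made only by cycling cells, while transport kinesins carry vesicles, endosomes, mitochondria and ciliary cargo in resting cells as well. Centromere proteins mark the chromosome site that spindle fibres attach to: CENP-A replaces histone H3 there, a constitutive network of CENP proteins binds it, and outer proteins such as CENP-E and CENP-F join when the cell enters mitosis. Most of these roles were worked out in human and other vertebrate cell lines. Adult hepatocytes are mostly quiescent, and p21, encoded by Cdkn1a, inhibits the cyclin-dependent kinases that drive the cell cycle.

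The values are log2 expression values from RMA, a method that corrects background, makes the arrays' distributions alike and summarises the probes of a set, so a change of 1 is a doubling and levels of different genes cannot be compared. A gene is said to have risen or fallen where limma's moderated test gave a Benjamini-Hochberg adjusted p under 0.05 over all 28939 probe sets tested. Array medians lay between 6.47 and 6.58. Ikbkg, which encodes NEMO, had values of 8.1, 8.26 and 8.45 in the labelled double knockout, 8.23, 8.48 and 8.35 in the NEMO knockout and 8.73, 8.89 and 8.98 in wild type. It fell by 0.60 in the labelled double knockout (adjusted p = 0.00835) and by 0.52 in the NEMO knockout (adjusted p = 0.0184) relative to wild type. The Cdkn1a probe set, which 4930567H12Rik shares, was not reduced as its label would have it, with readings of 11.14, 10.14 and 11.06 in the labelled double knockout, 9.76, 10.70 and 9.83 in the NEMO knockout and 8.54, 9.64 and 7.83 in wild type. It rose by 2.11 in the labelled double knockout over wild type (adjusted p = 0.0194), and was 0.68 ± 0.45 above the NEMO knockout (adjusted p = 0.803). Whether its probes fall inside the deletion was not analysed here, and group names below follow the labels. The hepatocyte markers Alb, Apoa1, Ttr, Tat, Pck1, Hnf4a and Cps1 were all measured, and none was called in any comparison. These are bright probe sets, with Alb at 13.69 to 13.83 over the 9 arrays. Whether signals this bright would follow a change in hepatocyte content was not tested.

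Mitotic kinesins and most centromere proteins were highest in the labelled double knockout, intermediate in the NEMO knockout and lowest in wild type, while transport kinesins stayed near the wild type level. The largest differences were those of Kif11, the motor that pushes spindle poles apart (5.29-fold above wild type in the labelled double knockout), and Kif20a, a cytokinesis motor (4.58-fold). Of the 58 genes, 23 rose and 1 fell in the labelled double knockout relative to wild type, where 9.32% of all probe sets were called, 5.81% higher and 3.51% lower. Relative to wild type 12 rose and none fell in the NEMO knockout, where 7.68% of all probe sets were called, 5.66% higher and 2.02% lower. Between the labelled double knockout and the NEMO knockout limma called none of the 58, and 0.197% of all probe sets were called, 0.0864% higher and 0.111% lower. At an unadjusted p under 0.05 that comparison had 24 of the 58 genes, 21 higher and 3 lower, and 2158 of all probe sets. With array weights or a repeated quantile normalisation it had 1 called gene each, the centromere proteins Cenpi and Cenpn. The 3 comparisons share arrays, so their counts are not independent of each other. In whole liver, more cells of a type and more RNA per cell cannot be told apart.

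All 12 mitotic kinesins had positive differences in each of the 3 comparisons, with a median of 0.58 for the labelled double knockout minus the NEMO knockout, 1.23 for the labelled double knockout minus wild type and 0.66 for the NEMO knockout minus wild type. The medians over all probe sets were 0, -0.03 and -0.04 in the same order. Relative to wild type 11 of 12 rose in the labelled double knockout and 5 of 12 in the NEMO knockout. Between the knockout groups none of the 12 was called (lowest adjusted p = 0.0901, Kif14), but in 9 of 12 all labelled double knockout arrays lay above all NEMO knockout arrays, which held for 4.99% of all probe sets. Against wild type the arrays were likewise separate and higher in 11 of 12 in the labelled double knockout (11.6% of all probe sets) and in 10 of 12 in the NEMO knockout (11.4%).

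Kif11 encodes the kinesin-5 motor that slides spindle microtubules apart. It read 8.14, 8.32 and 8.36 in the labelled double knockout, 6.76, 7.55 and 7.31 in the NEMO knockout and 6.29, 5.70 and 5.62 in wild type. None of the 3 groups overlapped. Its difference from wild type was 2.40 ± 0.22 in the labelled double knockout (SE, n = 3 per group; limma adjusted p = 0.00029) and 1.33 ± 0.22 in the NEMO knockout (2.52-fold, adjusted p = 0.00582). The labelled double knockout was 1.07 ± 0.22 above the NEMO knockout (2.10-fold), which was not called (adjusted p = 0.129). Kif15, the kinesin-12 motor that backs up Kif11 in keeping the spindle bipolar, rose by 0.94 ± 0.13 in the labelled double knockout over wild type (adjusted p = 0.00193) and stood at 0.32 ± 0.13 in the NEMO knockout (adjusted p = 0.194).

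The cytokinesis motors include Kif20a, which carries the chromosomal passenger complex to the spindle midzone, and Kif23, a subunit of centralspindlin. Kif20a read 8.29, 8.41 and 8.32 in the labelled double knockout, 7.83, 8.29 and 7.76 in the NEMO knockout and 6.78, 5.90 and 5.75 in wild type. Both knockout groups lay above every wild type array, and the knockout groups met at 8.29 at this rounding. Kif20a rose by 2.20 ± 0.24 in the labelled double knockout (limma adjusted p = 0.000711) and by 1.82 ± 0.24 in the NEMO knockout (3.52-fold, adjusted p = 0.00214), and of the 12 it had the largest difference in the NEMO knockout. The gap between the knockout groups was 0.38 ± 0.24 (adjusted p = 0.791). Kif23 read 7.11, 7.47 and 7.37 in the labelled double knockout, 6.34, 7.26 and 6.76 in the NEMO knockout and 5.98, 5.95 and 5.79 in wild type, so the knockout groups overlapped and both cleared wild type. It rose by 1.41 ± 0.20 and 0.88 ± 0.20 in these knockout groups over wild type (adjusted p = 0.00241 in the labelled double knockout and 0.0264 in the NEMO knockout). Kif20b, another cytokinesis motor, read 5.80, 6.39 and 5.71 in the labelled double knockout, 5.15, 5.54 and 5.21 in the NEMO knockout and 5.06, 4.92 and 4.80 in wild type. It rose in the labelled double knockout (1.04 ± 0.18, adjusted p = 0.00589), and its value in the NEMO knockout was 0.37 ± 0.18 (adjusted p = 0.274). Kif14, which acts with citron kinase at the midbody, rose by 0.66 ± 0.09 in the labelled double knockout (adjusted p = 0.00212) and was at 0.16 ± 0.09 in the NEMO knockout (adjusted p = 0.39). A dimmer second Kif14 probe set was at -0.16 and -0.13 in those comparisons, and averaging both ended the call (adjusted p = 0.148). Between the knockout groups the brighter Kif14 set was at 0.51 ± 0.09 (limma adjusted p = 0.0901) and the dimmer at -0.03 (adjusted p = 0.98).

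Chromosome-bound motors and regulators of microtubule ends followed the same order of group means. Kif4, a chromokinesin of chromosome arms and the central spindle, read 6.07, 6.36 and 6.39 in the labelled double knockout, 5.15, 5.89 and 5.32 in the NEMO knockout and 5.08, 4.60 and 4.65 in wild type. The 3 groups did not overlap, although the lowest NEMO knockout array was close to the highest wild type array. Kif4 rose 2.82-fold in the labelled double knockout (1.5 ± 0.20, limma adjusted p = 0.0017), and its NEMO knockout difference of 0.68 ± 0.20 was not called (adjusted p = 0.0742). Kif22, the other chromokinesin, rose in both knockout groups, by 1.03 ± 0.17 in the labelled double knockout (adjusted p = 0.00464) and 0.74 ± 0.17 in the NEMO knockout (adjusted p = 0.0264). Kif2c, which depolymerises microtubules at centromeres, read 6.98, 7.21 and 6.85 in the labelled double knockout, 6.24, 6.56 and 6.11 in the NEMO knockout and 5.99, 5.40 and 5.38 in wild type. These groups did not overlap either. Kif2c rose by 1.43 ± 0.18 in the labelled double knockout (adjusted p = 0.00134) and by 0.71 ± 0.18 in the NEMO knockout (adjusted p = 0.0421).

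The kinesin-8 motors Kif18a, which damps chromosome movements at the spindle equator, and Kif18b, which shortens astral microtubules, passed only against wild type in the labelled double knockout. Kif18b read 7.33, 7.46 and 7.37 in the labelled double knockout, 6.30, 6.77 and 6.54 in the NEMO knockout and 6.42, 5.78 and 5.48 in wild type. Its NEMO knockout and wild type arrays overlapped, and all labelled double knockout arrays were higher than both. The differences were 1.49 ± 0.21 for the labelled double knockout over wild type (limma adjusted p = 0.00234), 0.85 ± 0.21 over the NEMO knockout (adjusted p = 0.246) and 0.64 ± 0.21 for the NEMO knockout over wild type (adjusted p = 0.111). Kif18a read 5.52, 6.11 and 5.86 in the labelled double knockout, 5.40, 5.39 and 5.46 in the NEMO knockout and 5.14, 4.48 and 4.76 in wild type. It rose by 1.04 ± 0.18 in the labelled double knockout (adjusted p = 0.00641) and was at 0.62 ± 0.18 in the NEMO knockout (adjusted p = 0.0688). Kif2b, a relative of Kif2c, was the exception among the 12, with values from 4.91 to 5.29 over all 9 arrays and differences of 0.02 to 0.04.

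**Figure D1:**
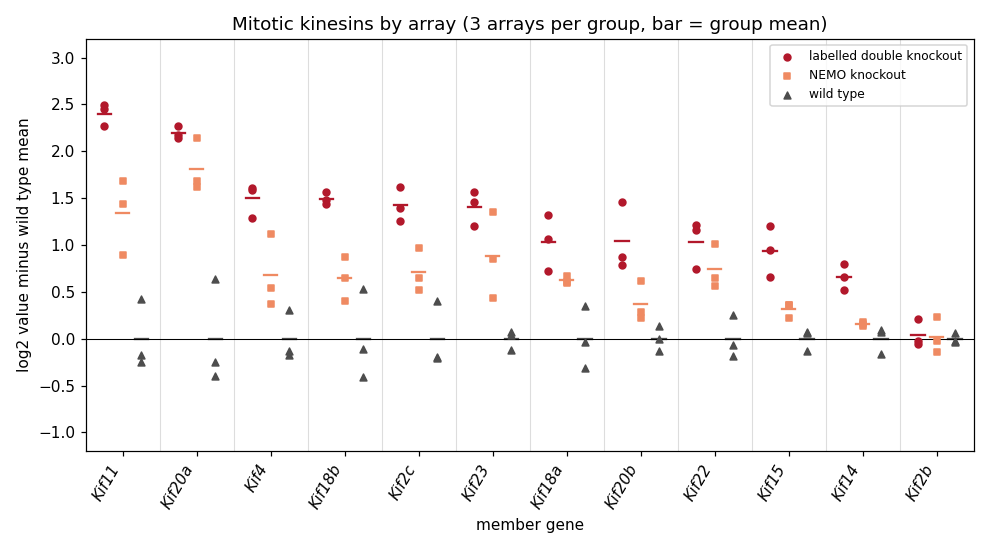
Log2 values of the 12 mitotic kinesins on each array, minus the gene's wild type mean, with genes along the horizontal axis and points for the labelled double knockout (circles), the NEMO knockout (squares) and wild type (triangles); short bars are means of 3 arrays. For Kif11 the means lie 2.40 and 1.33 above wild type in these knockout groups, and Kif2b alone shows no separation.

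Single arrays shaped the mitotic values. In wild type, replicate 1 was the highest of its group for 10 of the 12 mitotic kinesins, by a median of 0.28 above the group mean. In the NEMO knockout, replicate 2 was the highest for 9 and replicate 1 the lowest for 7 of 12, and in the labelled double knockout replicate 1 was the lowest for 8. Without wild type replicate 2 or without wild type replicate 3, the number of the 58 genes called in the NEMO knockout against wild type was 5 instead of 12, with 5.70% and 5.36% of all probe sets called. Calls in the NEMO knockout ended for Kif23 without NEMO knockout replicate 3 or any wild type array (highest adjusted p = 0.0948), for Kif22 without NEMO knockout replicate 2 or either of wild type replicates 2 and 3 (highest 0.0987), and for Kif2c without any of 7 arrays, all but wild type replicate 1 and labelled double knockout replicate 2 (highest 0.141). Conversely, Kif18b passed without wild type replicate 1 (limma adjusted p = 0.00999), Kif18a without wild type replicate 1 or labelled double knockout replicate 1 (0.0263 and 0.0481), and Kif4 without NEMO knockout replicate 1 (0.0435). The calls of Kif11 and Kif20a held with each array left out in turn, as did all 11 mitotic calls of the labelled double knockout against wild type.

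Markers of other liver cells were set beside these values. Against wild type, 7 of 9 macrophage markers and 6 of 8 stellate cell markers rose in each knockout group. Their summed linear signals were 6676 to 7185 in the labelled double knockout, 6830 to 7601 in the NEMO knockout and 3984 to 4273 in wild type for macrophages. For stellate cells they were 4677 to 5377, 4924 to 6019 and 2605 to 2791 in that order. Between the labelled double knockout and the NEMO knockout none of the 61 measured markers of 9 cell types was called, nor was any mitotic kinesin. Only 0.197% of all probe sets were called in that comparison, so the lack of a marker call cannot show that cell content was the same. The medians there were -0.05 for macrophage, -0.11 for stellate, -0.24 for T and NK cell, -0.18 for neutrophil and -0.15 for B cell markers. They were -0.01 for endothelial, 0.02 for hepatocyte, 0.07 for cholangiocyte and 0.04 for neuronal and glial markers, and 0.58 for mitotic kinesins. Single markers ran from -0.68 (Syt1) to 0.68 (Lyve1). In 4 of 8 T and NK cell markers all labelled double knockout arrays lay below all NEMO knockout arrays (5.75% of all probe sets). Among T and NK cell markers, 3 of 8 rose in the NEMO knockout and none in the labelled double knockout, with summed signals of 481 to 551, 593 to 718 and 481 to 497 in the same order of groups. Of cholangiocyte markers 2 of 6 rose in each knockout group (594 to 811, 649 to 722 and 464 to 579), and of neutrophil markers 1 of 6 in the labelled double knockout and 2 of 6 in the NEMO knockout (306 to 335, 346 to 437 and 276 to 285). No B cell (4 measured), endothelial (7) or neuronal and glial (6) marker was called. Of all probe sets, 9.32% were called in the labelled double knockout and 7.68% in the NEMO knockout against wild type. An array signal has no true zero, so absence of a marker cannot be read from it, and which cells carried the mitotic transcripts was not tested.

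Outer kinetochore proteins behaved like the mitotic kinesins. Cenpe, itself a kinesin motor that carries chromosomes to the spindle equator, read 6.56, 6.67 and 6.83 in the labelled double knockout, 5.69, 6.23 and 5.82 in the NEMO knockout and 5.27, 4.65 and 4.87 in wild type. Cenpf, a large coiled-coil protein of the nuclear matrix and kinetochore, read 6.79, 6.99 and 6.90 in the labelled double knockout, 6.14, 6.44 and 6.22 in the NEMO knockout and 6.0, 5.65 and 5.47 in wild type. In both genes the 3 groups were fully separated. Cenpe rose 3.38-fold in the labelled double knockout (1.76 ± 0.18, limma adjusted p = 0.000476) and 1.98-fold in the NEMO knockout (0.99 ± 0.18, adjusted p = 0.009), and the knockout groups differed by 0.77 ± 0.18 (adjusted p = 0.2). Cenpf rose by 1.19 ± 0.13 in the labelled double knockout (adjusted p = 0.00074) and by 0.56 ± 0.13 in the NEMO knockout (adjusted p = 0.0319), with 0.63 ± 0.13 between the knockout groups (adjusted p = 0.153). The NEMO knockout call of Cenpf was lost when replicate 2 or 3 of wild type or of the NEMO knockout, or replicate 3 of the labelled double knockout, was left out (highest adjusted p = 0.109).

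Of the 16 inner centromere proteins, 9 rose in the labelled double knockout and 4 in the NEMO knockout against wild type, and none fell. Their median difference was 0.31 for the labelled double knockout minus the NEMO knockout, 0.51 for the labelled double knockout minus wild type and 0.17 for the NEMO knockout minus wild type. In 9 of 16 all labelled double knockout arrays were above all NEMO knockout arrays, which held for 4.99% of all probe sets. In 1, Cenpb, all were below (5.75% of all probe sets), although its nearest arrays both read 7.42 at this rounding.

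Cenpa, the histone H3 variant that marks the centromere, rose by 1.0 ± 0.13 in the labelled double knockout (limma adjusted p = 0.00181) and 0.74 ± 0.13 in the NEMO knockout (adjusted p = 0.00914), with overlapping knockout groups. Cenpn, which reads CENP-A nucleosomes, gave 7.53, 7.59 and 7.69 in the labelled double knockout, 6.86, 7.12 and 6.86 in the NEMO knockout and 6.59, 6.37 and 6.23 in wild type. All groups of Cenpn were separate. It rose 2.31-fold in the labelled double knockout (1.21 ± 0.11, adjusted p = 0.000273) and 1.46-fold in the NEMO knockout (0.55 ± 0.11, adjusted p = 0.0138), and the gap of 0.66 ± 0.11 between the knockout groups missed the threshold (adjusted p = 0.0612). Its partner Cenpl was at 0.39 ± 0.14 in the labelled double knockout (adjusted p = 0.155) and -0.07 ± 0.14 in the NEMO knockout (adjusted p = 0.83).

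The CENP-H, CENP-I, CENP-K and CENP-M proteins form 1 complex of the inner network, and all 4 genes rose in the labelled double knockout. Cenpm read 8.96, 9.55 and 9.18 in the labelled double knockout, 8.44, 8.87 and 8.62 in the NEMO knockout and 8.30, 7.91 and 7.46 in wild type. The groups did not overlap, and wild type had the widest spread. Cenpm rose by 1.34 ± 0.22 in the labelled double knockout (limma adjusted p = 0.00495), Cenpi by 1.01 ± 0.08 (adjusted p = 0.000207), Cenpk by 0.74 ± 0.16 (adjusted p = 0.0183) and Cenph by 0.49 ± 0.09 (adjusted p = 0.00737). In the NEMO knockout Cenpi rose by 0.49 ± 0.08 (adjusted p = 0.00726), and Cenpm stood at 0.75 ± 0.22 (adjusted p = 0.0733). Between the knockout groups Cenpi had the lowest adjusted p of the 58 genes, 0.0605, at 0.52 ± 0.08.

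Among genes of the CENP-O, CENP-P, CENP-Q and CENP-U complex, Cenpu (0.91 ± 0.11, limma adjusted p = 0.000981) and Cenpp (0.61 ± 0.11, adjusted p = 0.00696) rose in the labelled double knockout. Cenpq was at 0.38 ± 0.15 (adjusted p = 0.164) and Cenpo at -0.05 ± 0.14 (adjusted p = 0.895). Of the histone-fold genes, Cenpt rose by the same 0.54 ± 0.13 in both knockout groups (adjusted p = 0.0287 in the labelled double knockout and 0.0324 in the NEMO knockout). Cenpw (0.39 ± 0.11, adjusted p = 0.0518), Cenpx and Cenps did not pass in the labelled double knockout. Cenpx read 10.18, 10.22 and 10.22 in the labelled double knockout, 9.89, 10.07 and 9.99 in the NEMO knockout and 10.09, 10.08 and 10.11 in wild type. Here the NEMO knockout lay lowest, without overlap and without a call (-0.11 ± 0.06 against wild type, adjusted p = 0.374). Cenpb, which binds a short DNA box in centromeric repeats, read 7.36, 7.42 and 7.36 in the labelled double knockout, 7.54, 7.60 and 7.42 in the NEMO knockout and 7.47, 7.14 and 7.5 in wild type. Its difference between the knockout groups was -0.14 ± 0.10 (adjusted p = 0.815). Cenpj, a centriole protein despite its name, and Cenpv had no call, with differences between -0.13 and 0.21.

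Some of these calls rested on single arrays. In the NEMO knockout, Cenpn lost its call without wild type replicate 2 or 3 (highest limma adjusted p = 0.0503), and Cenpt when replicate 3 of the labelled double knockout, 1 or 2 of the NEMO knockout, or 2 or 3 of wild type was left out (highest 0.111). Cenpm passed there without wild type replicate 1 (0.0324). In the labelled double knockout, Cenpk lost its call when its own group's replicate 2, or replicate 1 or 3 of wild type, was left out (highest 0.0712), and Cenpt when replicate 2 or 3 of either group was (highest 0.0967), while Cenpw passed without labelled double knockout replicate 2 (0.041).

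**Figure D2:**
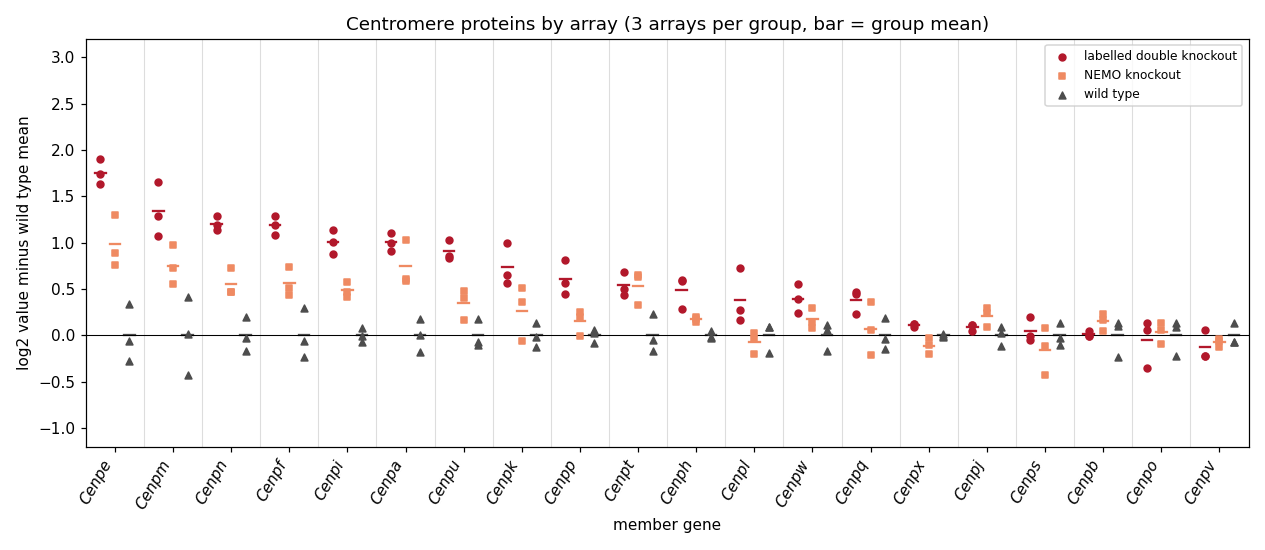
Log2 values of the 20 Cenp genes on each array, minus the gene's wild type mean, with genes along the horizontal axis, symbols by group and bars for means of 3 arrays. Cenpe has the largest mean in the labelled double knockout, 1.76 above wild type, and Cenpb, Cenpo and Cenps stay near 0 in that group.

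Promoter letters, which the choice by name did not use, are shown for all members that rose in the NEMO knockout and for the 3 with the largest gaps between the knockout groups, 14 genes of which 12 had a promoter in the table used. The motif searched for below was found in 9 of these 12, and the other 3, Cenpe, Cenpi and Cenpt, are printed with them. The core TTTGAA of the cell cycle homology region is known in human and mouse cells as a landing site of complexes with MuvB proteins. Among them, the DREAM complex represses cell cycle genes at rest, and complexes of MuvB with MYB and FOXM1 activate them late in the cycle. The p21 protein is known to favour DREAM by inhibiting cyclin-dependent kinases. CCAAT boxes, bound by NF-Y, often lie upstream of it. RefSeq promoters (GRCm38.p6) were matched for 51 of the 58 genes. Each printed window runs from 110 bases before to 30 bases after an annotated transcription start, 5′ to 3′ along the gene. Capitals mark the core, read as TTTGAA along the gene or as TTCAAA where it lies on the opposite strand. They also mark the CCAAT box, read as ATTGG where it lies on the opposite strand, and no marked stretches overlap.
Kif11, chr19:37376272-37376411, plus strand: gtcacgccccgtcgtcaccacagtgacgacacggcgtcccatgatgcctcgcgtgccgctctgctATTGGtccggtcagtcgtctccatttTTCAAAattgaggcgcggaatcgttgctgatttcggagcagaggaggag
Kif23, chr9:61946770-61946909, minus strand: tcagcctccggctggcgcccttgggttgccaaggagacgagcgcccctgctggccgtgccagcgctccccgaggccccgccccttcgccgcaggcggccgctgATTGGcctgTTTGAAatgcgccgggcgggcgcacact
Kif22, chr7:127042391-127042530, minus strand: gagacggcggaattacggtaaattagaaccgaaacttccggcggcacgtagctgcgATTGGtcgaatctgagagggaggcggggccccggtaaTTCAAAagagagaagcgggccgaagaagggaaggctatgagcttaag
Kif2c, chr4:117178743-117178882, minus strand: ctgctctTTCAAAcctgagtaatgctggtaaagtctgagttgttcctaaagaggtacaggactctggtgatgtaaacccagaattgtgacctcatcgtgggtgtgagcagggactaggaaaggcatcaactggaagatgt
Kif18b, chr11:102925095-102925234, minus strand: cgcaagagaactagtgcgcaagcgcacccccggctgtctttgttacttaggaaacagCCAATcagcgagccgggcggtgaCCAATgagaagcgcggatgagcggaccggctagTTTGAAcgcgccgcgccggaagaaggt
Kif4, chrX:100625955-100626094, plus strand: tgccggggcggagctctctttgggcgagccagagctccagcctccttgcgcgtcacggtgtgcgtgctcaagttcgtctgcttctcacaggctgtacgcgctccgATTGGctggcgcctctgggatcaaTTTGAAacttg

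The mitotic kinesin windows of Kif11 and Kif22 carry the core on the opposite strand just before the start, and those of Kif23, Kif18b and Kif4 carry it just after the start, with a CCAAT box upstream in all 5. In Kif2c the match lies about 100 bases upstream (-103 to -98), with no CCAAT box in the 300 bases. The 6 centromere genes that rose in both knockout groups follow, with the transport kinesin Kif13a for contrast. G and C make up 88.6% of the Kif13a window, against 46.4% to 73.6% in the other printed windows. By base composition alone TTTGAA is therefore less likely in the Kif13a window. Of the 6, Cenpa, Cenpn and Cenpf hold TTTGAA, Cenpe and Cenpi hold only a CCAAT box, and Cenpt holds neither.
Cenpa, chr5:30666776-30666915, plus strand: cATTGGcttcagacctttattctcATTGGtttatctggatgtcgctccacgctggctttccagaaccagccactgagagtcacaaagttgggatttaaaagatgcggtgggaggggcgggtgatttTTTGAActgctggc
Cenpn, chr8:116921630-116921769, plus strand: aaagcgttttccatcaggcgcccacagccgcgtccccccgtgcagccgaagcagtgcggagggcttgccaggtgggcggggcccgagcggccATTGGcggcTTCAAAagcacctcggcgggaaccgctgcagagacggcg
Cenpf, chr1:189688057-189688196, minus strand: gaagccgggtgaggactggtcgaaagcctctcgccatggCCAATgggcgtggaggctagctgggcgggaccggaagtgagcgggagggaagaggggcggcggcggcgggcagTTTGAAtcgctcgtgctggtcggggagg
Cenpe, chr3:135212453-135212592, plus strand: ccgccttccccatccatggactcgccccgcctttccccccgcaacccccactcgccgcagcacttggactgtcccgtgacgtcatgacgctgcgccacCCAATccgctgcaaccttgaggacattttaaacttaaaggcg
Cenpi, chrX:134307974-134308113, plus strand: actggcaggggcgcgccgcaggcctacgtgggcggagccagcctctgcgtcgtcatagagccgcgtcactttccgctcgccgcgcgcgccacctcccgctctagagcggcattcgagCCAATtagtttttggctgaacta
Cenpt, chr8:105851979-105852118, minus strand: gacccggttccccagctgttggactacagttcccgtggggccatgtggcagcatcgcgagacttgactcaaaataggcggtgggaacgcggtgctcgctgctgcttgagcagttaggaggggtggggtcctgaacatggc
Kif13a, chr13:46929689-46929828, minus strand: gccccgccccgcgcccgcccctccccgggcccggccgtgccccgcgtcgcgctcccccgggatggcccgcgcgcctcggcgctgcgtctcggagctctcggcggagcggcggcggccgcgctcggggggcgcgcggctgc

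Searching both strands of the whole 300 bases, TTTGAA was found in 9 of 11 mitotic kinesins with a promoter (81.8%), in 1 of 10 transport kinesins, in 2 of 10 other kinesins, in 4 of 16 inner centromere genes and in 1 of the 2 outer ones. Over all 27025 genes in the promoter table the share was 20.2%, near the share of the inner centromere genes. The mitotic kinesins Kif18a and Kif2b held no match. Within 30 bases of the start, a limit chosen after the positions were seen, it was found in 7 of 11 mitotic kinesins and 0 of 10 transport kinesins, against 3.39% of all genes. CCAAT was found in 7 of 11 mitotic kinesins, 11 of 16 inner centromere genes and 3 of 10 transport kinesins, against 41.1% of all genes. Of the 22 genes with a promoter that rose in the labelled double knockout, 12 held TTTGAA (54.5%), against 5 of 29 that did not rise (17.2%). These 12 are the 9 mitotic kinesins already counted and Cenpa, Cenpn and Cenpf, so this is largely the same count again. Kif18a, Cenpe, Cenpi and Cenpm were among the 10 that rose with no TTTGAA in these letters. A match is a string of letters and not a shown binding site, and 6 letters occur often by base composition.

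**Figure D3:**
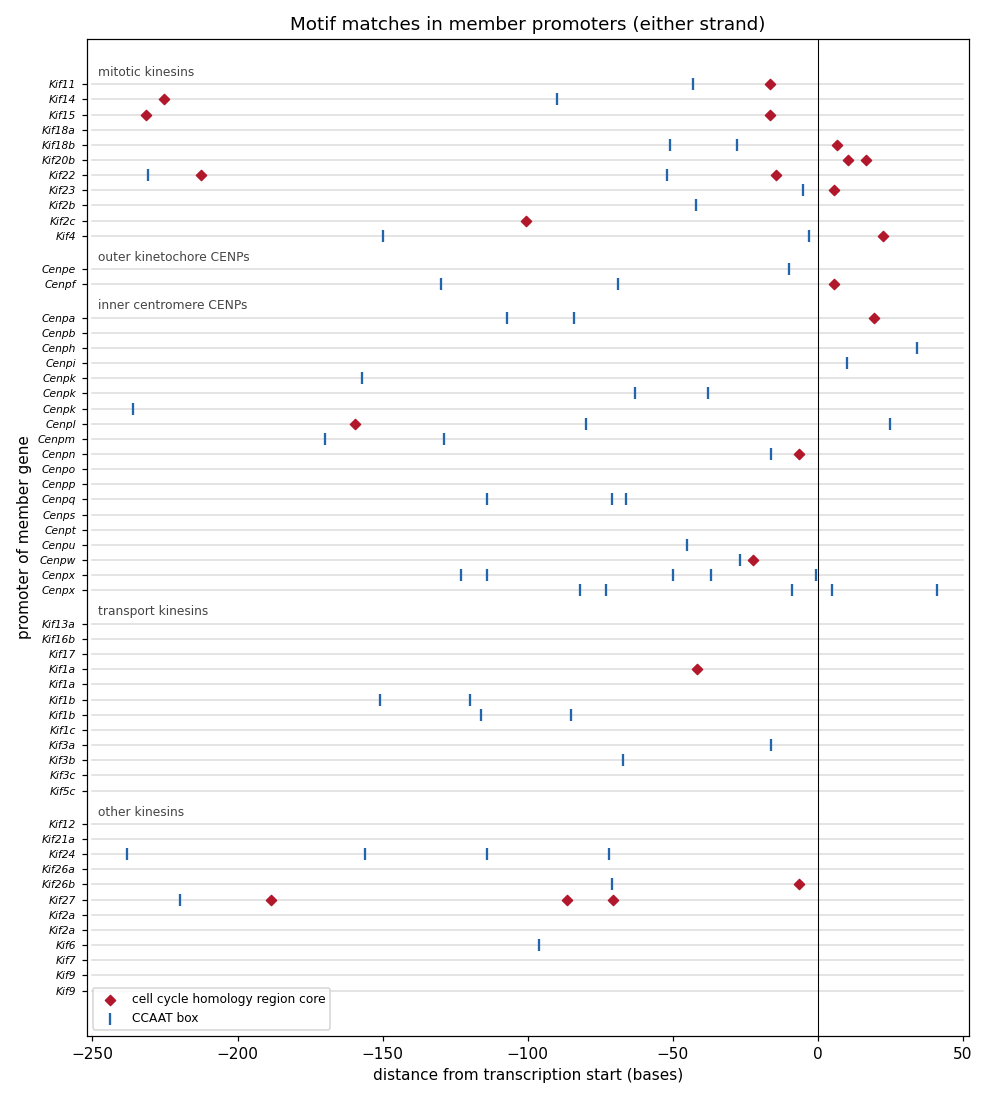
Positions of the cell cycle homology region core (diamonds) and CCAAT boxes (ticks) on either strand, from 250 bases before to 50 bases after the start, with 1 line per annotated promoter and genes grouped by role (Cenpj and Cenpv, which hold neither, are not drawn). Diamonds lie within 30 bases of the start in 7 of 11 mitotic and 0 of 10 transport kinesins, against 3.39% of all genes. That limit was chosen after the positions were seen.

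Transport kinesins formed the flat end of the family. None of the 13 rose in any comparison, and Kif13a fell in the labelled double knockout against wild type. Of all probe sets, 9.32% were called there, 7.68% in the NEMO knockout against wild type and 0.197% between the knockout groups. Counts this low in 13 genes are thus near the general share. The medians were 0.01 for the labelled double knockout minus the NEMO knockout, -0.02 for the labelled double knockout minus wild type and -0.02 for the NEMO knockout minus wild type. Differences from wild type ran from -0.31 to 0.16 in the labelled double knockout and from -0.30 to 0.14 in the NEMO knockout, with a median SE of 0.10. Differences of about 3 times that error still missed the threshold, as for Kif1b and Kif13b below, so changes of that size may go uncalled with 3 arrays per group. The kinesin-1 genes Kif5a, Kif5b and Kif5c, which encode the conventional motor of vesicles and mitochondria, and the kinesin-2 genes Kif3a, Kif3b and Kif3c, which serve cilia and vesicles, lay between -0.17 and 0.15 in all 3 comparisons.

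Kif13a, which carries endosomes and cargo from the Golgi, read 7.07, 7.29 and 7.23 in the labelled double knockout, 7.51, 7.43 and 7.51 in the NEMO knockout and 7.46, 7.60 and 7.46 in wild type. The labelled double knockout lay below both other groups, which overlapped. It fell against wild type (-0.31 ± 0.08, limma adjusted p = 0.0379), and its difference from the NEMO knockout was -0.29 ± 0.08 (adjusted p = 0.316). This call ended without any of 7 arrays, all but NEMO knockout replicate 1 and labelled double knockout replicate 2 (highest adjusted p = 0.12). Kif1b, a motor of mitochondria and synaptic vesicle precursors, read 9.57, 9.93 and 9.52 in the labelled double knockout, 10.04, 9.95 and 10.10 in the NEMO knockout and 9.79, 9.99 and 10 in wild type. Its gap between the knockout groups was -0.36 ± 0.11 (adjusted p = 0.466), and against wild type it passed without labelled double knockout replicate 2 (-0.39, adjusted p = 0.0378). Kif13b, another vesicle motor, read 8.59, 8.40 and 8.73 in the labelled double knockout, 8.21, 8.5 and 8.61 in the NEMO knockout and 8.78, 8.75 and 8.71 in wild type, with -0.30 ± 0.11 for the NEMO knockout over wild type (adjusted p = 0.158). Kif1a, the neuronal relative of Kif1b, read 6.20, 6.23 and 6.16 in the labelled double knockout, 6.21, 6.09 and 6.24 in the NEMO knockout and 6.03, 6.06 and 6.03 in wild type. Both knockout groups of Kif1a cleared wild type, by 0.16 ± 0.06 (adjusted p = 0.179) in the labelled double knockout and 0.14 ± 0.06 (adjusted p = 0.243) in the NEMO knockout.

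Among the 12 other kinesins, 1 rose in each knockout group against wild type, and not the same gene. These counts are near the general share, as 5.81% of all probe sets rose in the labelled double knockout and 5.66% in the NEMO knockout. Kif24, a centriolar kinesin that holds back cilium formation in cycling cells, read 5.98, 6.13 and 6.14 in the labelled double knockout, 5.76, 5.84 and 5.83 in the NEMO knockout and 5.87, 5.81 and 5.65 in wild type. Only the labelled double knockout stood apart. Kif24 rose by 0.31 ± 0.08 there (limma adjusted p = 0.0347), and was at 0.27 ± 0.08 over the NEMO knockout (adjusted p = 0.347). Without any one of wild type replicates 2 and 3, NEMO knockout replicates 2 and 3 and labelled double knockout replicates 2 and 3 the call ended (highest adjusted p = 0.125), and after centring the arrays on their medians it was at 0.25 (adjusted p = 0.0932).

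Kif21b, a kinesin-4 motor that limits microtubule growth and is prominent in neurons and lymphocytes, read 6.55, 6.52 and 6.56 in the labelled double knockout, 6.59, 6.69 and 6.99 in the NEMO knockout and 6.38, 6.12 and 6.23 in wild type. It was highest in the NEMO knockout, unlike the mitotic genes. Kif21b rose by 0.51 ± 0.11 in the NEMO knockout (limma adjusted p = 0.0184), a call that ended without wild type replicate 2 or 3 (highest adjusted p = 0.068), and was at 0.30 ± 0.11 in the labelled double knockout (adjusted p = 0.136). The summed T and NK cell marker signal given above was also highest in the NEMO knockout, though Cd4 and Klrb1c were not, and its part in this value was not tested. Kif9, a motor of motile cilia, read 5.77, 5.50 and 5.83 in the labelled double knockout, 6.03, 5.89 and 5.93 in the NEMO knockout and 6.22, 5.85 and 6.06 in wild type. The labelled double knockout was below both groups, at -0.34 ± 0.11 from wild type (adjusted p = 0.104; 0.044 after centring the arrays, a call). Kif12, whose human counterpart is mutated in a cholestatic liver disease of children, was at 0.15 ± 0.09 in the labelled double knockout (adjusted p = 0.432) and 0.27 ± 0.09 in the NEMO knockout (adjusted p = 0.14; 0.0403 without NEMO knockout replicate 2). The remaining 8 (Kif2a, Kif6, Kif7, Kif19a, Kif21a, Kif26a, Kif26b and Kif27) and Kif4-ps, whose sequence resembles Kif4, had differences between -0.31 and 0.20 and no call.

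**Figure D4:**
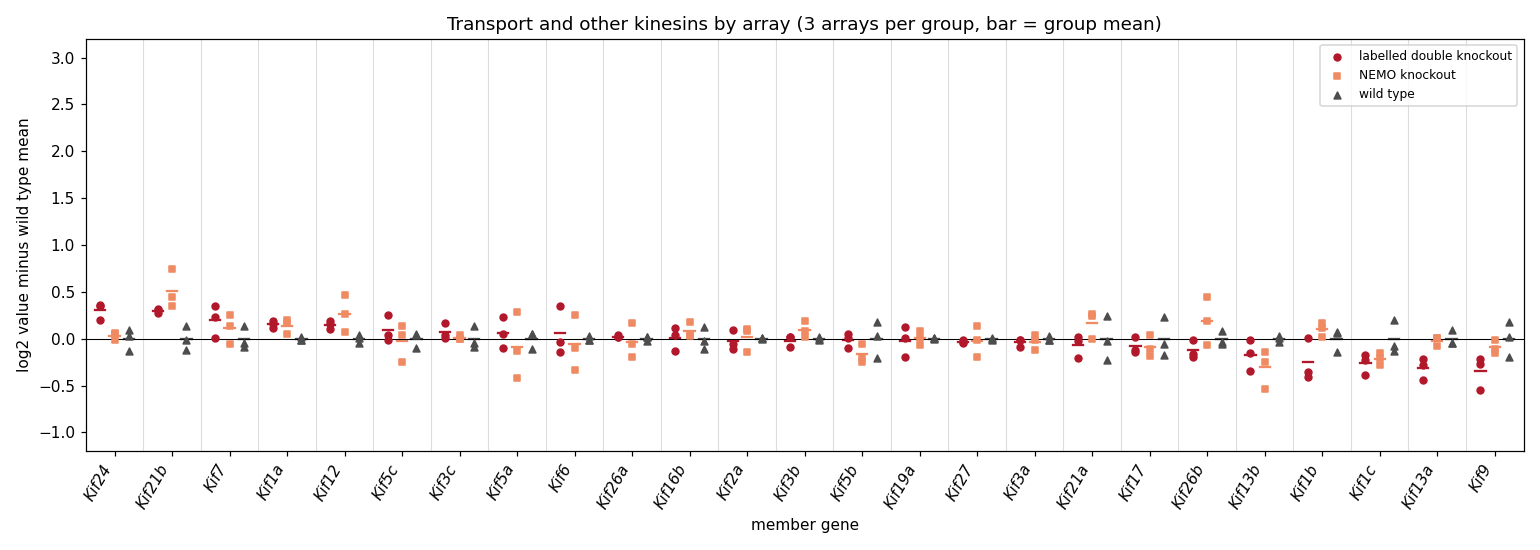
Log2 values of the 13 transport and 12 other kinesins on each array, minus the gene's wild type mean, on the same vertical scale as the plots of mitotic kinesins and Cenp genes; symbols mark the group and bars the means of 3 arrays. Kif24 is highest in the labelled double knockout, Kif21b in the NEMO knockout (0.51 above wild type), and Kif13a and Kif9 are lowest in the labelled double knockout.

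Partners outside the naming rule were counted in the same fit. Of 27 listed names, mostly of outer kinetochore and CENP-A loading factors, 21 had a probe set of their own. Of these, 11 rose in the labelled double knockout and 7 in the NEMO knockout against wild type, while 1 fell in the NEMO knockout. The 21 include Cenpc1 and Itgb3bp, genes of the inner network, which were at 0.02 and -0.21 in the labelled double knockout, neither called. Knl1, the scaffold of the outer kinetochore, rose by 2.27 ± 0.23 in the labelled double knockout (limma adjusted p = 0.00044) and 1.13 ± 0.23 in the NEMO knockout (adjusted p = 0.0145). Zwilch, of the complex that recruits dynein to kinetochores, rose by 1.97 ± 0.23 in the labelled double knockout and 0.95 ± 0.23 in the NEMO knockout. Spc25, a subunit of the NDC80 complex, rose by 1.49 ± 0.19 in the labelled double knockout and 0.95 ± 0.19 in the NEMO knockout. Ska3, of the microtubule-coupling SKA complex, rose by 1.60 ± 0.14 in the labelled double knockout, and Dsn1, of the MIS12 complex, by 0.87 ± 0.14 in the NEMO knockout. Mis12 itself fell in the NEMO knockout (-0.43 ± 0.10, adjusted p = 0.0311). Calls in the NEMO knockout ended for Knl1 when replicate 2 of that group or replicate 3 of wild type was left out (highest adjusted p = 0.0599), for Spc25 when replicate 2 of that group or replicate 2 or 3 of wild type was (0.0697), for Zwilch without any of 5 arrays (0.114) and for Mis12 without any of 6 (0.0912), in both cases wild type replicates 2 and 3, NEMO knockout replicates 2 and 3 and labelled double knockout replicate 3, and for Mis12 also NEMO knockout replicate 1. None of the 21 was called between the knockout groups (lowest adjusted p = 0.076). Of the transport partners, none of 8 measured kinesin light chains, adaptors and minus-end kinesins and none of 19 dynein and dynactin genes was called in any of the 3 comparisons. Their differences ran from -0.35 to 0.40. Of all probe sets, 9.32% were called in the labelled double knockout and 7.68% in the NEMO knockout against wild type. Between the knockout groups the share was 0.197%.

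**Figure D5:**
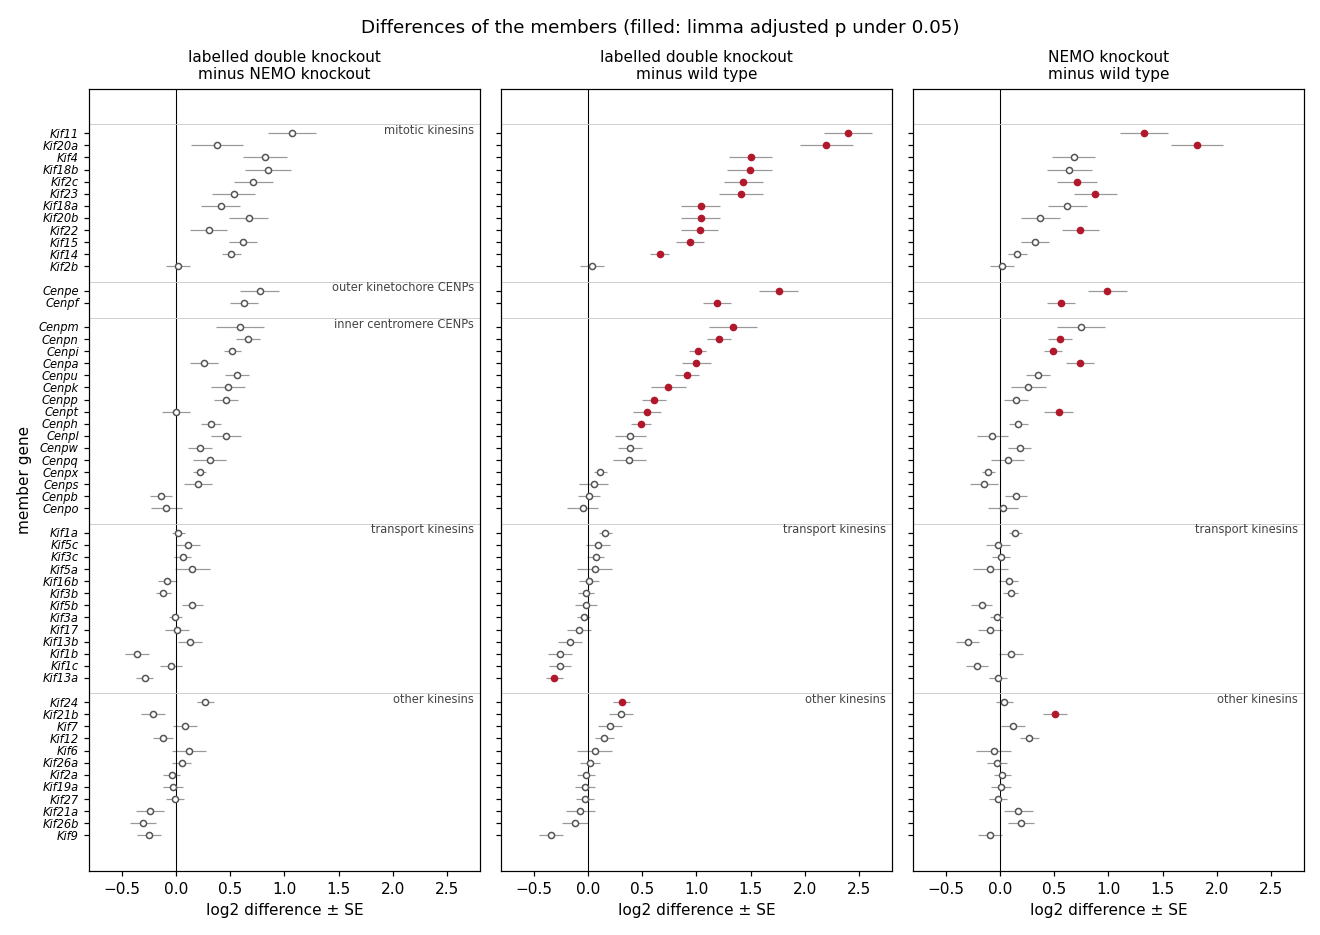
Log2 differences with standard errors for 55 of the 58 genes (rows, grouped by role; Cenpj, Cenpv and Kif4-ps are not drawn) in the 3 comparisons (columns), with filled points at an adjusted p under 0.05. In the middle column 11 of 12 mitotic kinesins are filled, in the right column 5, and in the left column none, although all 12 lie right of 0.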

How the data were processed

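RNA of 9 livers was measured on single-channel Affymetrix gene arrays. The authors deposited log2 values for each probe set on each array, made with RMA per the submitters' processing notes; the log base was taken from RMA and the range of the values, and software versions and build were not given in those notes. Arrays have no read depth, and their number limits the precision. The labels do not say that the replicates of a group are separate animals beyond their different identifiers, so p-values measure the spread between these samples.

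The table has 35556 rows. Of these, 6617 whose identifiers precede all annotated ones were left out as presumed controls, an inference from the numbering. Names came from the platform annotation, and all 58 members matched the GRCm38.p6 gene table by identifier. The fit used lmFit and eBayes of limma 3.58.1 (R 4.3.3) over all 9 arrays, with 1 mean per group, after a test on simulated data. The members and lists were chosen with earlier results of these data known, so no list was tested as such. By rule, values on every array are given for the 12 called members with the largest differences and for the largest non-overlapping difference each way in each role list and comparison. Kif2b, Kif12, Mis12 and the other genes given with values were named after their values were seen. Summed marker signals are sums of 2 to the power of the log2 value. Alternatives were median centring, quantile normalisation, leaving out the dimmest 30% of probe sets, an eBayes trend, array weights, fits of 2 groups, all rows, averaged probe sets, a replicate block and leaving out each array. Replicate numbers were not treated as pairing the samples in the main fit. Correlations of same-numbered deviations ran from -0.12 to 0.39, and between the knockout groups they were 0.39, 0.08 and 0.25. They were not set against differently numbered ones, so they cannot show whether arrays of 1 number were handled together.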

Additional observations from a re-analysis of the deposited data

How the results depend on the processing

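The call counts of the labelled double knockout against wild type stayed within 1.5 times the main 24, from 18 with the dimmest probe sets left out to 25 with array weights. Leaving out the dimmest probe sets removed the called genes Cenph, Cenpi, Cenpk, Cenpp, Cenpu, Kif15 and Kif18a themselves. In the NEMO knockout against wild type the count was 7 when only these 2 groups were fitted, and from 5 to 14 with 1 array left out, against 12. Of these calls, 19 of 24 and 5 of 12 held under every alternative that could be computed for them. Between the knockout groups the count was 1 with quantile normalisation and 1 with array weights, against 0. With the labels' replicate number as a replicate block the count was 0 between the knockout groups. Against wild type it was 24 (22 higher) in the labelled double knockout and 12 in the NEMO knockout. Whether the numbers pair the samples was not settled.

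The transport kinesin median was -0.08 with centring and -0.04 with quantile normalisation, against -0.02, in the NEMO knockout against wild type, and -0.08 under both in the labelled double knockout against wild type; between the knockout groups quantile normalisation gave -0.02. With 1 array left out these medians ran from -0.04 to 0.01 in the NEMO knockout against wild type, from -0.05 to -0.01 in the labelled double knockout against wild type and from -0.01 to 0.03 between the knockout groups. With 1 array, or the 2 arrays named below, left out, the mitotic median ran from 0.55 to 0.93 in the NEMO knockout against wild type. The inner centromere median there ran from 0.14 to 0.29, and both upper ends came from leaving out those 2 arrays. Leaving out the dimmest probe sets removed Cenph, Cenpi, Cenpk, Cenpp and Cenpu from the inner centromere list. The median of the inner centromere genes left was 0.39 in the labelled double knockout against wild type and 0.22 against the NEMO knockout. The mitotic median, then without Kif15, Kif18a and Kif2b, was 1.43 and 0.67 in the same order. With 1 array left out, the inner centromere median between the knockout groups ranged from 0.27 to 0.40. Leaving out both wild type replicate 1 and NEMO knockout replicate 1, chosen after seeing the data, gave 15 calls and medians of 0.93 (mitotic kinesins) and 0.29 (inner centromere) in the NEMO knockout against wild type. Among the genes named by rule, signs turned only in uncalled values near 0. In the NEMO knockout against wild type, Kif24 was at -0.03 with centring and -0.02 without wild type replicate 3 (up to 0.08 without 1 array, 0.11 without the 2 arrays above), and Kif13a at 0.03 without wild type replicate 2 and 0.01 without NEMO knockout replicate 2. In the labelled double knockout against wild type, Cenpb was at -0.06 with centring, -0.04 with quantile normalisation, -0.02 with array weights, -0.11 without wild type replicate 2 and -0.01 without labelled double knockout replicate 2 (up to 0.07 without 1 array). Between the knockout groups Kif1a was at -0.03 without NEMO knockout replicate 2 and 0 without labelled double knockout replicate 2 (up to 0.05 without 1 array). Other than the removal of dim genes, the cause of these moves was not tested. Dim probe sets limit what small changes can be seen.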
